A study of Mus musculus with 16 samples.

Results

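The 10 cAMP phosphodiesterase genes Pde3a, Pde3b, Pde4a, Pde4b, Pde4c, Pde4d, Pde7a, Pde7b, Pde8a, and Pde10a were taken by name from the 23235 gene names of the mRNA table, and NONMMUT019242.2, a long noncoding RNA (lncRNA) that lies in an intron of Pde4d, was described beside them. The genes were chosen by their known role in cAMP breakdown, with earlier results of these data known, and Pde4d and NONMMUT019242.2 were selected on the counts of the lncRNA in HFD, HFD + RSV, and control mice. RNA from skeletal muscle of 16 male C57BL/6J mice was sequenced, and the 4 groups held 4 mice each. The mice were 6 weeks old at the start. The control group received a normal diet. The HFD group received a high-fat diet (HFD) with 60% fat for 8 weeks as a model of insulin resistance. The HFD + RSV group and the HFD + metformin group received the same diet and were then treated for 6 weeks with resveratrol (RSV) or with metformin. Each mouse gave 1 library, and the 2 tables together held 20281801 to 34021101 counts per mouse. The comparison asks whether the genes of the enzymes that break down cAMP, which resveratrol is known to inhibit as proteins, differed in mRNA level between the diets and treatments.

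The muscle label was checked on markers. The summed FPKM of 8 skeletal muscle fibre markers was 23934 to 36535 per mouse, and that of the 5 photoreceptor markers in the table was 0.312 to 1.17. The labels' extraction text names retinas. The labels of all 4 HFD mice share a leading number that no other group has, the treated groups on the same diet included. What that number stands for cannot be told apart from membership of the HFD group. This holds for its comparison with the control group and for those with both treated groups.

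Cyclic AMP is made by adenylyl cyclases when hormones such as adrenaline bind their receptors, and it acts through protein kinase A, the exchange factor Epac, and other effectors. Phosphodiesterases end the signal by hydrolysing cAMP. The PDE4 enzymes (Pde4a to Pde4d) and the PDE7 and PDE8 enzymes act on cAMP only, PDE3 enzymes act on cAMP and are inhibited by cGMP, and PDE10A acts on both nucleotides. PDE4D is a major form in muscle, and PDE3B is best known in adipocytes, in which insulin activates it to restrain lipolysis. Long PDE4 forms carry regulatory N-terminal regions that short forms lack, and each form begins at its own first exon.

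Pde4d spans chr13:108449948-109953461 on the plus strand of GRCm38, and 19 transcripts of it were counted, of which 13 passed the filter on low counts. The coding part of their first exons is shown for 4 transcripts, because Pde4d transcripts differ in where they begin. Capitals mark the bases of the first coding exon, and the lower-case bases are the first 24 of the next exon (GENCODE M21 transcripts).
ENSMUST00000119507: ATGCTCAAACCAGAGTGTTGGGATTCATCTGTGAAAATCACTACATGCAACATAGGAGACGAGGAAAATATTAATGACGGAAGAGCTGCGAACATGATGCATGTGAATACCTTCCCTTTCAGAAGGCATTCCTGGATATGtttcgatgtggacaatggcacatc
ENSMUST00000079975: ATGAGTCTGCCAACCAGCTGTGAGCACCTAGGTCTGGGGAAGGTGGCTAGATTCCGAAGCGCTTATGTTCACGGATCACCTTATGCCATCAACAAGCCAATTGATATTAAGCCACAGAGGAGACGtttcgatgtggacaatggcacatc
ENSMUST00000120664: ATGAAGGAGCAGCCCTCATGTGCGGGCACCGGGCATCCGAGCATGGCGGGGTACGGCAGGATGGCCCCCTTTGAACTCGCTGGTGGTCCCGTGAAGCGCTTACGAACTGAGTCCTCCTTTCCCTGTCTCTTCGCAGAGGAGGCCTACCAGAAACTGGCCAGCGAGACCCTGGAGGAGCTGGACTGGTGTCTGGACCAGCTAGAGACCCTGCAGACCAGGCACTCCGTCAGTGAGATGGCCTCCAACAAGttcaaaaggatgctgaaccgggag
ENSMUST00000117879: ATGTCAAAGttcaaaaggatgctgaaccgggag
The first coding exons lie at chr13:109442214-109442353, chr13:109581588-109581712, chr13:109903441-109903689, and chr13:109925272-109925280. ENSMUST00000119507 and ENSMUST00000079975 are long forms with coding lengths of 2109 and 2094 bases that share the exon after the first. ENSMUST00000120664 and ENSMUST00000117879 have coding lengths of 1752 and 1512 bases and share another, later exon after the first. NONMMUT019242.2 lies at chr13:109583992-109584445, is 454 bases long, and begins 2587 bases after the start of ENSMUST00000079975. It lies in the first intron of that transcript and of ENSMUST00000119507, which both end at the shared exon. Of the 20 annotated Pde4d transcripts 7 hold it in an intron, which is the first intron in 4 of them, and it overlaps no exon of any. The strand of the reads was not stated, so RNA of NONMMUT019242.2 and unspliced RNA of Pde4d cannot be told apart.

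All 10 genes passed the filter, and their levels covered a wide range. Levels are given as FPKM (fragments per kilobase of transcript per 1e6 counted) summed over the transcripts of a gene, which allows levels of different genes to be compared. Pde4d was the highest, at 100.1 ± 7.51 FPKM over the 16 mice (mean ± SD), and its lowest mouse (84.7) was above the highest mouse of the next gene. Pde7a (39.5 ± 6.71) and Pde4b (36.7 ± 7.30) followed and overlapped, with Pde7a above Pde4b in 10 of 16 mice. Pde7b came next, at 9.89 to 15.5 FPKM, and was above Pde4a (11.2 ± 2.43) in 14 of 16 mice, while Pde4a overlapped with Pde3b (10.7 ± 14.5). Pde8a (5.35 ± 1.71) was above Pde3a (1.77 ± 0.416) in all 16 mice, and the ranges of Pde3a, Pde4c (1.74 ± 0.391), and Pde10a (1.65 ± 0.303) overlapped. Pde3b had the largest spread, from 0.834 to 50.2 FPKM. The order from Pde3a to Pde10a was not resolved beyond the spread between mice.

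**Figure D1:**
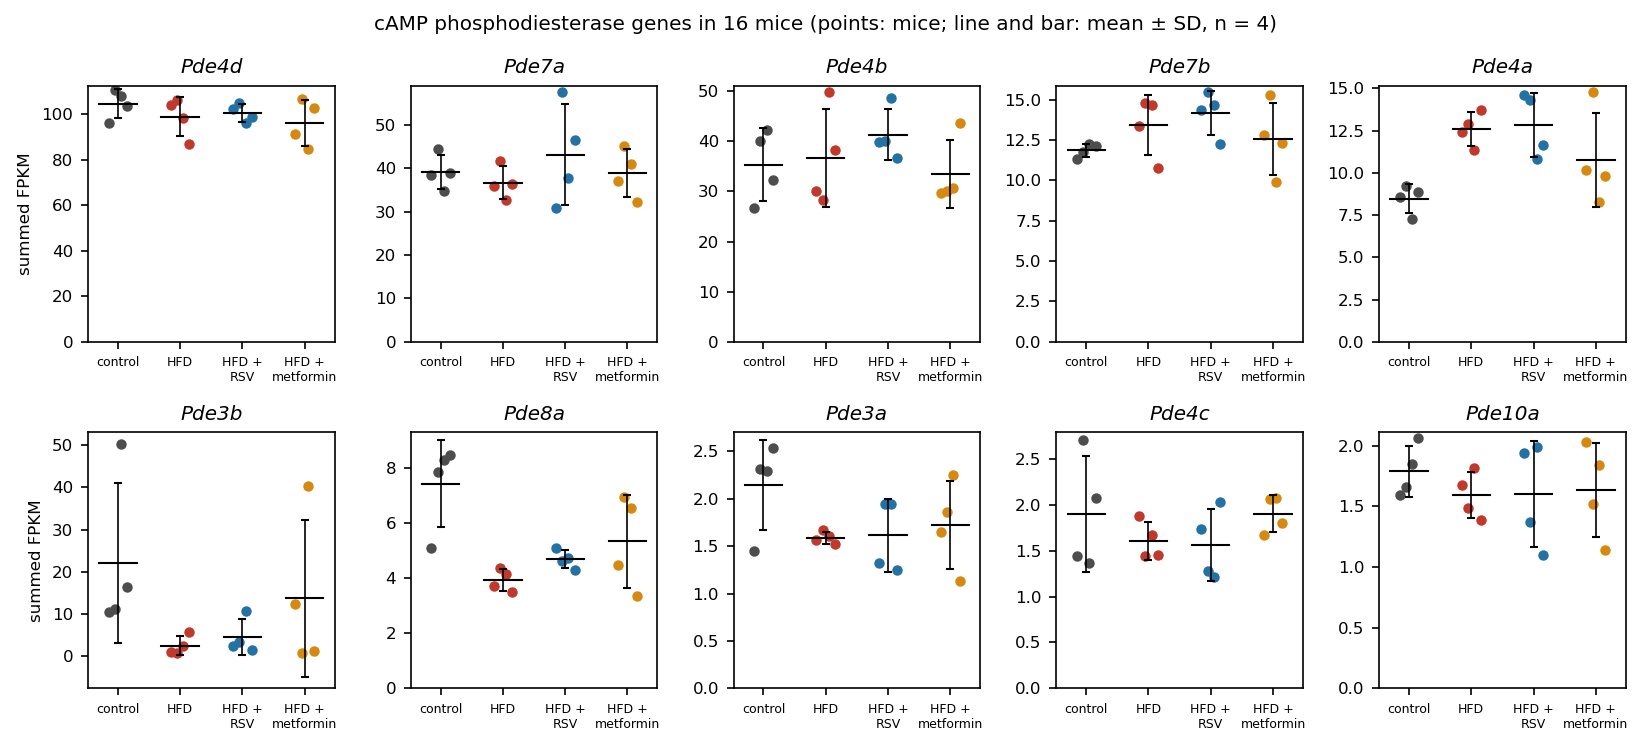
Summed FPKM of the 10 cAMP phosphodiesterase genes by group, with 1 point per mouse and the mean ± SD of 4 mice as a line and bar. Pde4d lies between 84.7 and 111 FPKM in every mouse, Pde8a is lower and Pde4a higher in each HFD mouse than in each control mouse, and Pde3b ranges from 0.834 to 50.2.

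Pde8a fell in HFD relative to control mice, and none of the 8 other tested members passed the adjusted threshold. PDE8A is a cAMP-specific enzyme of high affinity. Its FPKM was 5.09, 7.86, 8.29, and 8.50 in the control mice and 3.71, 4.39, 4.15, and 3.51 in the HFD mice. The 2 groups did not overlap, and the lowest control mouse lay nearest to the HFD mice. Pde8a was 1.70-fold lower (log2FC -0.77, standard error 0.18, edgeR quasi-likelihood adjusted p = 0.0462). Of all 15364 genes tested, 2.43% passed this threshold and 1.11% passed it with lower values, beside which the 1 member of 9 is read. The call was lost in 12 of the 16 fits that left out 1 mouse, with adjusted p between 0.0225 and 0.125, among them every fit without an HFD mouse or without control replicate 2, 3, or 4, while the log2FC stayed between -0.87 and -0.68. The summed FPKM of 6 slow-fibre markers moved with Pde8a only in part in the control and HFD mice. It was 22.8 in control replicate 1, the control mouse with the lowest Pde8a, and 374 to 707 in the other control mice. It did not exceed 76.3 in the HFD mice. Control replicate 2 had the highest sum (707) but less Pde8a than control replicates 3 and 4. HFD replicate 3 had the highest sum of its group (76.3), while HFD replicate 2 had the highest Pde8a. In the HFD + RSV mice the order was opposite, as replicate 4 had the highest sum (386) with the lowest Pde8a and replicate 1 the lowest sum (34.6) with the highest Pde8a. The HFD + metformin mice ranked in the same order by this sum and by Pde8a. Replicate 2 was the highest there in both (sum 133) and replicate 4 the lowest in both. The summed FPKM of 5 endothelial markers was lower in the HFD mice as well. It was 65.1, 86.0, 86.7, and 80.8 in the control mice and 56.4, 61.3, 55.2, and 57.6 in the HFD mice, without overlap and with control replicate 1 the lowest control mouse. In the HFD + metformin mice it was 60.6, 82.8, 104, and 56.6, and replicates 2 and 3 were the highest in Pde8a too. In the HFD + RSV mice it was 73.1, 67.8, 56.2, and 68.0. Replicate 1 was the highest there in both, but replicate 3, the lowest in the sum, exceeded replicates 2 and 4 in Pde8a. HFD replicate 3 was likewise the lowest of its group in the sum but not in Pde8a. At an unadjusted P < 0.05 all 6 slow-fibre and 3 of the 5 endothelial markers were lower in HFD relative to control mice, and none passed the adjusted threshold (smallest edgeR adjusted p = 0.0715 and 0.074). All of these markers were detected in each group, and their part in the result was not tested.

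Pde4a, a cAMP-specific enzyme of the PDE4 family, had higher values in the HFD group that did not pass the adjusted threshold. Its FPKM was 8.57, 9.21, 7.26, and 8.86 in the control mice and 12.4, 12.9, 11.4, and 13.7 in the HFD mice, without overlap. The log2FC was 0.66 (standard error 0.19, edgeR adjusted p = 0.07). Pde3b had the largest difference, with 10.5, 11.3, 50.2, and 16.3 FPKM in the control mice and 1.06, 0.853, 2.44, and 5.84 in the HFD mice. Every HFD mouse was below every control mouse, and 1 control mouse was far above the others. The log2FC was -2.99 with a standard error of 1.12 (edgeR adjusted p = 0.129), and the mice of a group differed several-fold. With only the 2 groups in the fit both genes passed (edgeR adjusted p = 0.0275 for Pde4a and 0.0497 for Pde3b), and they passed with DESeq2 as well (adjusted p = 0.0173 and 0.0434). Pde4a also passed without HFD + metformin replicate 2 (edgeR adjusted p = 0.0447) or replicate 3 (adjusted p = 0.0218). Groups without overlap on the scale of TMM-scaled counts per 1e6 (CPM) were seen for 3 of the 10 members and for 18.3% of all genes tested. At an unadjusted P < 0.05 the members counted 3 of 9, against 24.2% of all genes.

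None of the other tested members had an unadjusted P < 0.05. Pde7b, an enzyme of the PDE7 family with high affinity for cAMP, had a log2FC of 0.34 (standard error 0.16, edgeR adjusted p = 0.218). Pde3a, Pde4b, Pde4c, Pde7a, and Pde10a had log2FC from -0.20 to 0.16, with adjusted p from 0.379 to 0.968. The 95% interval of Pde7a was -0.36 to 0.39, and that of Pde10a was -0.80 to 0.62. Pde4d was not tested in comparisons with the HFD group, because it was chosen for the lncRNA that differed there. Its FPKM was 96.1, 111, 108, and 104 in the control mice and 104, 106, 98.3, and 87.1 in the HFD mice, and the groups overlapped. Its log2FC was 0.11 (standard error 0.12) on the TMM scale and -0.08 on the FPKM scale, on which the median of all genes was -0.16. Of the 10 members 5 were higher and 5 were lower in the HFD group on the TMM scale, and their median log2FC of -0.04 was close to the median of -0.02 over all genes.

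**Figure D2:**
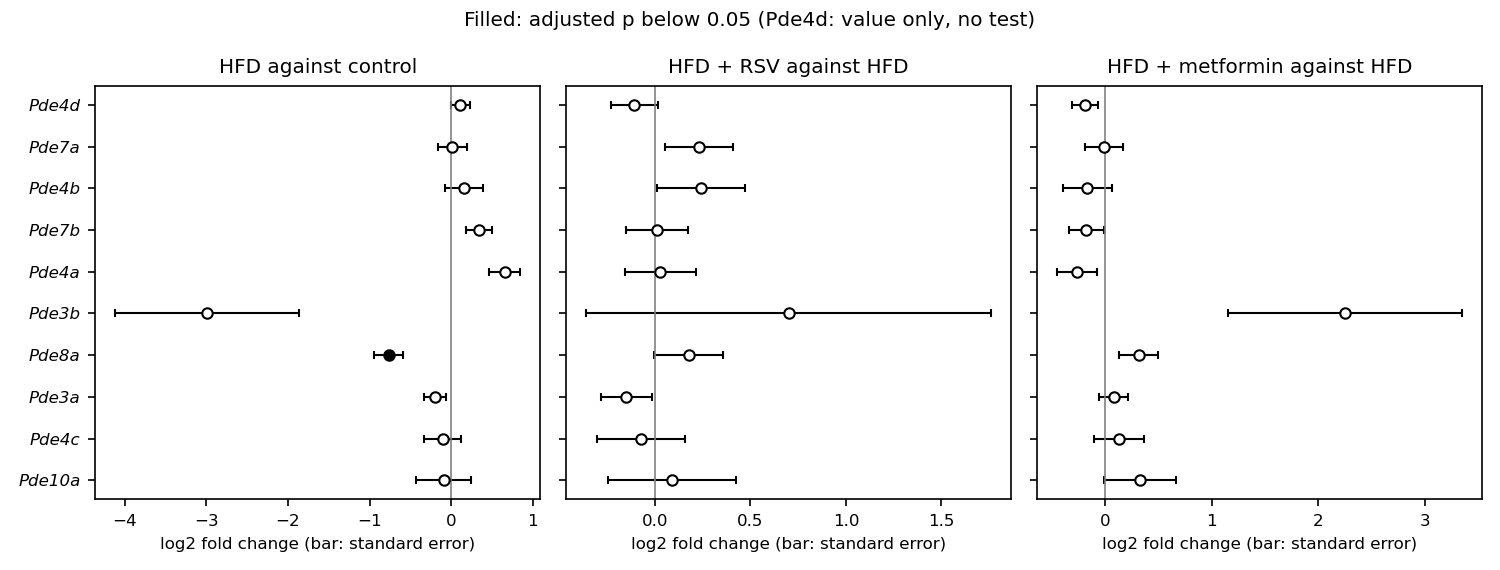
log2 fold changes of the 10 genes in the 3 comparisons with the HFD group, with bars for the standard error and a filled point for an adjusted p below 0.05. Pde8a in HFD relative to control mice is the filled point, at -0.77, and the points for the 2 treatments lie near 0 apart from Pde3b.

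No difference was detected for any member between HFD + RSV and HFD mice. Each of the 9 tested members had an edgeR adjusted p of 0.999, and none had an unadjusted P < 0.05, against 4.72% of all genes. No gene of the 15364 passed the adjusted threshold (0.0%) with edgeR. The log2FC of Pde8a was 0.18 (95% interval -0.21 to 0.57), with 5.10, 4.64, 4.72, and 4.31 FPKM in the HFD + RSV mice. That of Pde4a was 0.03 (95% interval -0.37 to 0.43), with 14.6, 14.3, 10.8, and 11.7 FPKM. Pde4b, which is known from immune cells and brain as well as muscle, had 39.8, 40.0, 48.7, and 36.8 FPKM in the HFD + RSV mice against 30.2, 28.3, 49.9, and 38.2 in the HFD mice (log2FC 0.24, 95% interval -0.25 to 0.74). For Pde3b the interval was wide, from -1.57 to 2.97, so differences of several-fold were not detectable. Pde4d had 103, 105, 96.0, and 98.7 FPKM in the HFD + RSV mice and a log2FC of -0.11 (standard error 0.12), with no test.

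Metformin treatment likewise gave no call. No member passed the adjusted threshold against the HFD group, which 0.013% of all genes did, and none had an unadjusted P < 0.05, against 8.02% of all genes. Pde3b had the largest value, with a log2FC of 2.25 (standard error 1.09, edgeR adjusted p = 0.626). Its FPKM was 12.4, 0.834, 40.3, and 1.299 in the HFD + metformin mice. Replicates 1 and 3 were above every HFD mouse, replicate 4 was among the HFD values, and replicate 2 was just below the lowest of them (0.853). Pde8a had 4.48, 6.95, 6.55, and 3.37 FPKM (log2FC 0.32, 95% interval -0.07 to 0.70), and Pde4a had 10.2, 14.8, 8.30, and 9.79 FPKM (log2FC -0.26, 95% interval -0.66 to 0.14). The 2 treatments compared directly gave no member with an unadjusted P < 0.05, against 4.68% of all genes, and the smallest edgeR adjusted p was 0.962.

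No member passed the adjusted threshold in a treated group against the control group, which 0.00651% of all genes did with RSV and 0.0% with metformin. In the HFD + RSV group, Pde4a had a log2FC of 0.69 (edgeR adjusted p = 0.156), Pde8a of -0.59 (0.18), Pde3a of -0.35 (0.246), and Pde7b of 0.35 (0.315), and these 4 of 10 members had an unadjusted P < 0.05, against 15.8% of all genes. Ranges of TMM-scaled CPM did not overlap for 5 members, against 11.3% of all genes. Pde4a passed the adjusted threshold without HFD + metformin replicate 3 (edgeR adjusted p = 0.0448). These comparisons share the control mice with that of the HFD group. In the HFD + metformin group, Pde8a alone had an unadjusted P < 0.05 (log2FC -0.45, edgeR adjusted p = 0.445), against 9.5% of all genes. Pde4d had log2FC of 0.01 (95% interval -0.25 to 0.27) in the HFD + RSV group and -0.07 (95% interval -0.33 to 0.19) in the HFD + metformin group.

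Adipocyte markers moved with Pde3b. The summed FPKM of 7 white adipocyte markers was 1065, 912, 4551, and 1553 in the control mice and 178, 146, 367, and 847 in the HFD mice. In the HFD + RSV mice it was 329, 533, 986, and 216, and in the HFD + metformin mice it was 1405, 163, 3971, and 289. In HFD relative to control mice 3 of the 7 were lower at an unadjusted P < 0.05, and none passed the adjusted threshold. Of 4 brown adipocyte markers, Cidea and Elovl3 were lower (edgeR adjusted p = 0.0474 and 0.0342). Cidea had 16.9 to 243 FPKM in the control mice, 0.537 to 1.82 in the HFD mice, 0.655 to 9.85 in the HFD + RSV mice, and 0.637 to 70.9 in the HFD + metformin mice. Elovl3 had 15 to 1253 counts in the control mice and 0 to 3 in the HFD mice. Ucp1 had 1.75 to 247 FPKM in the control mice and 0.12 to 0.574 in the HFD mice (adjusted p = 0.0697), and Cox8b, which muscle also expresses, had a log2FC of 0.32 (adjusted p = 0.488). In HFD + metformin relative to HFD mice Ucp1 and Cidea had an unadjusted P < 0.05 with higher values (edgeR adjusted p = 0.612 and 0.605). The 4 mice with the highest Pde3b were also the 4 with the highest white adipocyte markers, among them control replicate 3 and HFD + metformin replicate 3. Per 100 FPKM of the markers, Pde3b lay at 0.984 to 1.23 FPKM in the control mice and at 0.584 to 0.689 in the HFD mice. In the treated groups this ratio spread more widely, at 0.618 to 1.10 with RSV and 0.450 to 1.02 with metformin. Pde3b itself ranged over 60.2-fold between mice. All 7 white markers were detected in each group, and fewer adipocytes cannot be told apart from less RNA per adipocyte in whole muscle. Without these 2 mice the log2FC of Pde3b in HFD relative to control mice was -2.27 (edgeR adjusted p = 0.215), and that of Pde8a was -0.74 (adjusted p = 0.0629). Among the 3 tested lncRNA rows within Pde3b, NONMMUT063320.2 had 90, 159, 533, and 155 counts in the control mice and 9, 8, 14, and 20 in the HFD mice (edgeR adjusted p = 0.0711), and NONMMUT063321.2 had a log2FC of -3.54 (adjusted p = 0.105) in HFD relative to control mice.

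**Figure D3:**
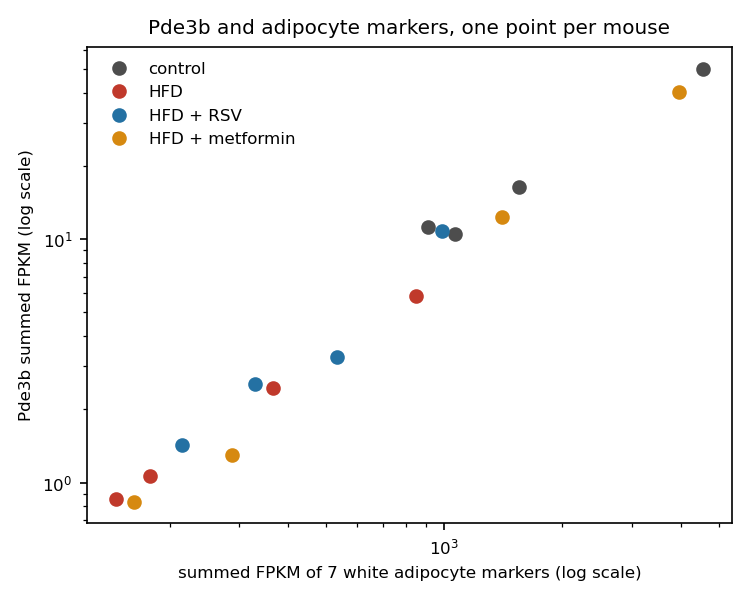
Summed FPKM of Pde3b against the summed FPKM of 7 white adipocyte markers, both on log scales, with 1 point per mouse. The points lie along 1 band from 0.834 to 50.2 FPKM of Pde3b, with control replicate 3 at its upper end.

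Within Pde4d, the transcripts did not move together. ENSMUST00000120664 took 59.9% of the Pde4d FPKM on average, at 63.8 ± 3.58 FPKM in the control mice, 60.9 ± 2.55 in the HFD mice, 58.4 ± 1.83 in the HFD + RSV group, and 56.5 ± 4.79 in the HFD + metformin group (SD, n = 4). Its log2FC in HFD relative to control mice was 0.10 (standard error 0.11) on the TMM scale, and it turned to -0.07 on the FPKM scale. The long form ENSMUST00000119507 had 11.2, 7.69, 7.43, and 8.31 FPKM in the control mice and 14.6, 15.6, 18.9, and 12.8 in the HFD mice. All 4 HFD mice were above all 4 control mice. Its share of the Pde4d FPKM was 8.37% ± 2.25 in control mice, 15.6% ± 2.40 in HFD mice, 15.1% ± 1.38 in the HFD + RSV group, and 16.2% ± 4.52 in the HFD + metformin group (SD, n = 4). Its log2FC against the HFD group was -0.10 with RSV and -0.07 with metformin (standard error 0.27 for each), beside 0.99 (standard error 0.27) in HFD relative to control mice. In the HFD + metformin group the mice differed, with 17.1, 15.6, 9.04, and 21.4 FPKM.

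ENSMUST00000079975, the long form that starts 2587 bases before the lncRNA, was rare. It had 85, 51, 52, and 59 counts in the control mice, 318, 246, 103, and 81 in the HFD mice, 80, 38, 30, and 77 in the HFD + RSV mice, and 53, 140, 29, and 164 in the HFD + metformin mice. HFD replicates 1 and 2 were high, and the other HFD mice were close to the control mice. Its log2FC was 1.51 (standard error 0.56) in HFD relative to control mice and -1.69 (standard error 0.56) in HFD + RSV relative to HFD mice. The partial transcript ENSMUST00000152630 moved the other way, with 34, 93, 55, and 64 counts in the control mice, 23, 35, 30, and 16 in the HFD mice, 70, 92, 46, and 39 in the HFD + RSV mice, and 24, 62, 28, and 48 in the HFD + metformin mice (log2FC -1.18, standard error 0.33, and 1.27, standard error 0.33). ENSMUST00000151429, ENSMUST00000155459, and ENSMUST00000117420 had log2FC from -1.43 to -1.09 and from 1.20 to 1.42 in the same comparisons. No test was made of these transcripts. Their exons overlap, and the counter divides shared fragments among them by estimation. The 38 tested transcripts of the 9 other members gave no call at the adjusted threshold of edgeR in HFD relative to control mice, and 7 of them had an unadjusted P < 0.05, against 13.1% of all mRNA transcripts. The adjusted share there was 0.0157%.

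**Figure D4:**
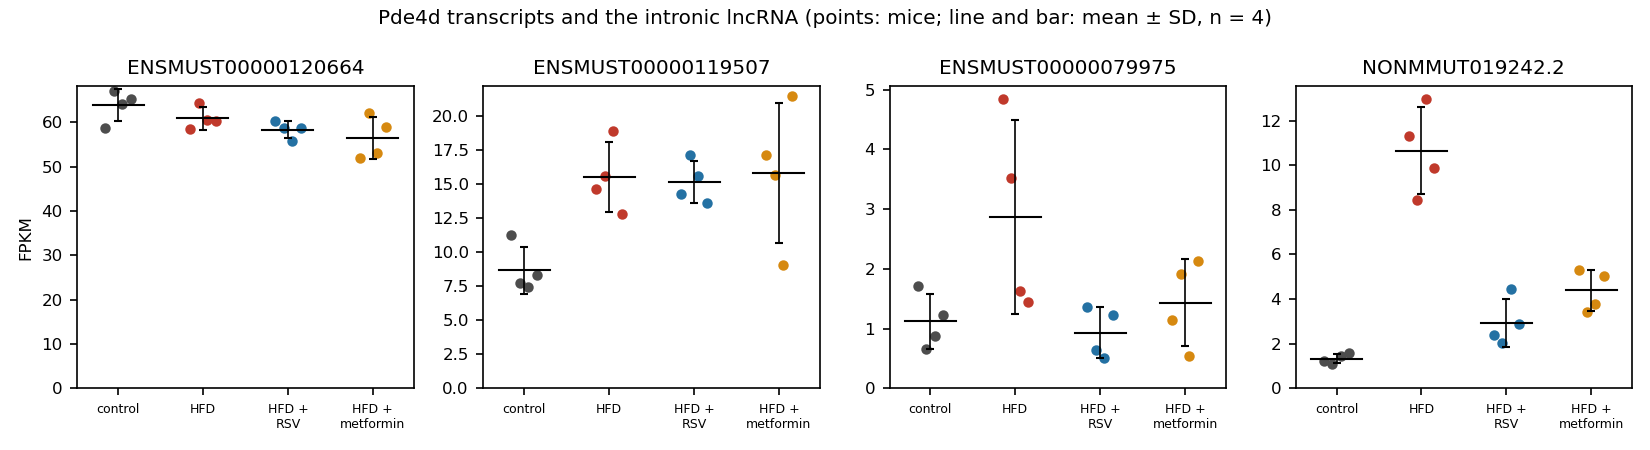
FPKM of 3 Pde4d transcripts and of the intronic lncRNA NONMMUT019242.2 by group, with 1 point per mouse and the mean ± SD of 4 mice. ENSMUST00000120664 stays between 52.0 and 67.0 FPKM, ENSMUST00000119507 is higher in all HFD mice than in the control mice, and NONMMUT019242.2 has no overlap between the HFD group and any other group.

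NONMMUT019242.2 had low counts, with 12, 17, 17, and 15 in the control mice and 148, 117, 164, and 110 in the HFD mice. In the HFD + RSV mice it had 28, 24, 53, and 36 counts, and in the HFD + metformin mice it had 49, 50, 40, and 77. The HFD group overlapped no other group, and both treated groups lay above all control mice. In FPKM the means were 1.34 ± 0.216, 10.6 ± 1.94, 2.93 ± 1.07, and 4.39 ± 0.923 (SD, n = 4) for the control, HFD, HFD + RSV, and HFD + metformin groups. The log2FC was 3.24 (standard error 0.28) in HFD relative to control mice, -1.96 (standard error 0.26) in HFD + RSV relative to HFD mice, and -1.46 (standard error 0.25) in HFD + metformin relative to HFD mice. These values chose the lncRNA and carry no test, and for the same reason the background shares of 1.61% and 0.0114% of lncRNAs called at an adjusted p < 0.05 in the first 2 comparisons are given without a reading. Over the 16 mice, after the group means were subtracted, no relation of its log2 CPM to that of Pde4d was detected (Pearson's r = 0.14, permutation p = 0.654, Spearman's rho = -0.01, permutation p = 0.981, two-sided, 1 relation computed). Without the 2 mice farthest from the median r was 0.24, and without HFD + metformin replicate 3 it was -0.27.

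The lncRNA was not alone in Pde4d. The span holds 48 deposited lncRNA rows, of which 31 passed the filter, and their differences varied along the gene. Of the tested rows 3 lay before the start of ENSMUST00000119507. NONMMUT019233.2 at -96.2 kb had a log2FC of -0.99 (standard error 0.95) and NONMMUT142952.1 at -17.2 kb of -0.10 (standard error 0.98) in HFD relative to control mice. NONMMUT142953.1 at -17.1 kb had 2.05 (standard error 0.60), with 2, 6, 3, and 1 counts in the control mice and 14, 15, 15, and 2 in the HFD mice. It also had the highest value of any of these rows in HFD + metformin relative to control mice (2.19), and the HFD group overlapped the control group. From the start of ENSMUST00000119507 on, the values rose with distance. The row just after the start of ENSMUST00000119507 (NONMMUT019235.2, 0.66 kb downstream) had a log2FC of 0.36 in HFD relative to control mice. The rows NONMMUT019236.2 and NONMMUT019237.2, at 13.2 and 19.0 kb, had 0.39 and 0.41, and NONMMUT019238.2 at 41.4 kb had 0.92. From there the values went on rising, to 1.71 for NONMMUT019239.2 at 75.3 kb, 2.43 for NONMMUT019240.2 at 101 kb, 2.97 for NONMMUT019241.2 at 107 kb, and 3.24 for NONMMUT019242.2 at 142 kb. The standard errors of these rows were 0.28 to 0.74. Beyond NONMMUT019242.2 the values were smaller. NONMMUT019243.2 at 199 kb had a log2FC of 0.12, and the 3 rows there lay between 0.07 and 0.12. Over the next 14 rows, up to the start of ENSMUST00000120664, the median was 0.18. The median over all 17599 tested lncRNAs was -0.0044. These rows were looked at because of NONMMUT019242.2, so they are described and not tested.

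**Figure D5:**
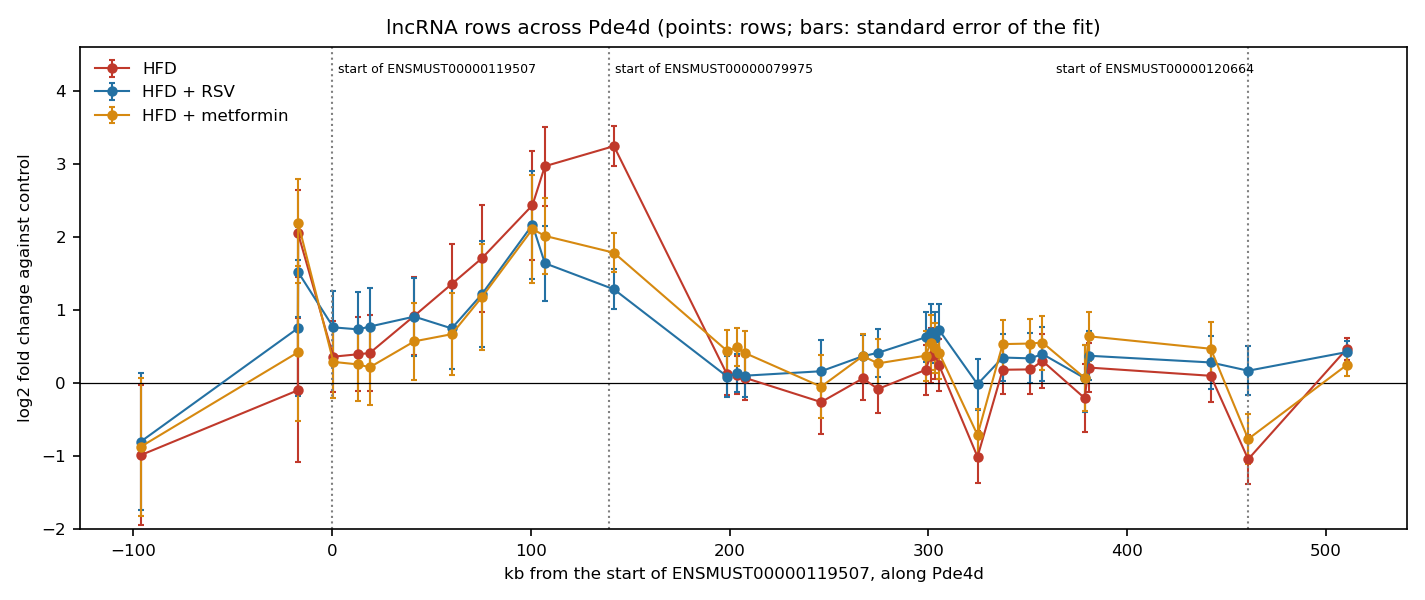
log2 fold change against the control group of the tested lncRNA rows along Pde4d, plotted by their distance in kb from the start of ENSMUST00000119507, with all 31 tested rows, bars for the standard error of the fit, and dotted lines at the starts of 3 transcripts. After the start of ENSMUST00000119507 the HFD points climb from 0.36 to 3.24 over 142 kb, lie at 0.12 at 199 kb, and those of both treated groups are highest at 101 kb, while NONMMUT142953.1 at -17.1 kb stands apart at 2.05, 1.52, and 2.19 in the HFD, HFD + RSV, and HFD + metformin groups.

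The rising rows differed between single mice as well. NONMMUT019241.2 had 125, 84, 108, and 137 counts in the control mice and 1109, 768, 1116, and 554 in the HFD mice. It had 196, 187, 473, and 568 counts in the HFD + RSV mice and 624, 615, 166, and 494 in the HFD + metformin mice. The control and HFD mice did not overlap, and HFD + RSV replicates 1 and 2 stood closer to the control mice than replicates 3 and 4 did. NONMMUT019240.2 repeated that split, with 92, 109, 406, and 457 counts in the HFD + RSV mice, against 65, 37, 40, and 88 in the control mice and 424, 257, 431, and 165 in the HFD mice. HFD + metformin replicate 3 was the lowest of its group in these rows, with 322 counts of NONMMUT019235.2 against 1688 to 3067 in the other 3 mice. Of the 8 tested rows between the starts of the 2 long forms, 2 had no overlap between the HFD and the control group, against 12.5% of all lncRNAs. In HFD + RSV relative to HFD mice the log2FC was -1.33 for NONMMUT019241.2, -0.27 for NONMMUT019240.2, and 0.40 for NONMMUT019235.2. In the HFD + metformin group it was -0.95, -0.33, and -0.07.

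Of the 31 tested rows 3 overlap Pde4d exons, and 2 of these had lower values in the HFD group. NONMMUT019266.2 covers the first coding exon of ENSMUST00000120664 and had 14.7, 15.3, 19.9, and 12.2 FPKM in the control mice, 7.90, 4.46, 7.27, and 5.63 in the HFD mice, 18.2, 25.3, 5.75, and 14.2 in the HFD + RSV mice, and 8.50, 11.1, 7.43, and 7.61 in the HFD + metformin mice. The HFD mice lay below all control mice, and 3 of the 4 HFD + RSV mice were among or above the control values (log2FC -1.04 and 1.21). NONMMUT019257.2 had log2FC of -1.01 and 0.99 in these comparisons. The other row, NONMMUT092288.1 at 510 kb, overlaps an exon of 1 transcript and runs past the end of the gene, and its values were higher in the HFD group. Its TMM-scaled CPM was 20.6, 16.5, 16.3, and 17.6 in the control mice and 23.2, 25.4, 23.7, and 25.7 in the HFD mice, without overlap (log2FC 0.47, standard error 0.15, and -0.04 in HFD + RSV relative to HFD mice). The summed FPKM of 5 Schwann cell markers was lower in all HFD mice than in the control mice, as NONMMUT019266.2 was. It was 15.3, 57.0, 49.1, and 16.1 in the control mice, 11.1, 13.5, 10.3, and 10.5 in the HFD mice, 18.4, 117, 9.67, and 35.9 in the HFD + RSV mice, and 15.3, 17.7, 24.2, and 8.69 in the HFD + metformin mice, and each of the 5 was detected in every group. The RSV mouse highest in the markers, replicate 2, was the highest in NONMMUT019266.2, and replicate 3 was the lowest in both. Other groups differed from this. HFD replicate 2 and HFD + metformin replicate 3 were each the lowest of their group in NONMMUT019266.2 and the highest in the markers. The part of Schwann cell RNA in the values of NONMMUT019266.2 was not tested.

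Within the spans of the 9 other members lie 55 lncRNA rows, of which 23 were tested. None passed the adjusted threshold in the comparisons with the HFD group, which 1.61%, 0.0114%, and 0.0% of all lncRNAs did. In HFD relative to control mice 12 of the 23 had an unadjusted P < 0.05, against 17.6% of all lncRNAs, and these were spread over Pde3a, Pde3b, Pde7a, Pde7b, Pde8a, and Pde10a. NONMMUT062440.2 in Pde8a had 49, 133, 84, and 49 counts in the control mice and 45, 40, 54, and 34 in the HFD mice, and it was lower as Pde8a itself was (log2FC -0.67, edgeR adjusted p = 0.0718). NONMMUT059319.2 in Pde3a had 22, 53, 45, and 27 counts in the control mice and 12, 14, 18, and 15 in the HFD + metformin mice (log2FC -1.29, edgeR adjusted p = 0.0722). NONMMUT028147.2 in Pde10a had 11, 16, 10, and 16 counts in the control mice, 26, 36, 36, and 18 in the HFD mice, and 12, 15, 4, and 21 in the HFD + metformin mice (log2FC 1.21, edgeR adjusted p = 0.122, and -1.29, adjusted p = 0.602).

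The upstream sequence was available in the RefSeq promoter table (GRCm38.p6) for 7 of the 10 members, with 13 starts. For Pde4d the window lies at ENSMUST00000122041, which had at most 3 counts in any mouse. The starts of ENSMUST00000120664, ENSMUST00000119507, and ENSMUST00000079975 had no window. The cAMP response element TGACGTCA, searched in the 250 bases before the start, was in none of the 13 windows and in 1.55% of 32851 promoters. Its first part TGACG, searched on both strands and contained in the full element, was in 3 windows, 1 each of Pde4a, Pde4b, and Pde8a, and in 17.8% of all promoters. The windows of Pde4a and Pde8a are shown because these members had the smallest p in HFD relative to control mice, with the match in capitals, which reads CGTCA where it lies on the other strand. The Pde4a window lies at chr9:21183851-21184100 on the plus strand, and the Pde8a window at chr7:81213015-81213264 on the plus strand. No Pde8a transcript was matched to the start of the Pde8a window, and the annotated Pde8a gene starts further on, at chr7:81213596.
Pde4a: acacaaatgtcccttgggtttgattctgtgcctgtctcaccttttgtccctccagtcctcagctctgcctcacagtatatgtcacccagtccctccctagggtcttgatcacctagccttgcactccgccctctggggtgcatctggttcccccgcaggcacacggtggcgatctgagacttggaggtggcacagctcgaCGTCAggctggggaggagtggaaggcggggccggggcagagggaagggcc
Pde8a: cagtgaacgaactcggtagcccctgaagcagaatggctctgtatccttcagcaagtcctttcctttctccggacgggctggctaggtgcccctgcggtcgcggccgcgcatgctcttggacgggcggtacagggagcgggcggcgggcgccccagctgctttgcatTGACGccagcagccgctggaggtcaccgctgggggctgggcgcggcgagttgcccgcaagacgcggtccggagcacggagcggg
The Pde4a window precedes 2 of the 4 tested Pde4a transcripts, ENSMUST00000115458 and ENSMUST00000140440, which took 30.8% and 5.70% of the Pde4a FPKM. ENSMUST00000140440 had a log2FC of -0.08 in HFD relative to control mice (standard error 0.36, edgeR adjusted p = 0.964). ENSMUST00000115458 had the largest difference of the 4, with a log2FC of 1.33 in HFD relative to control mice (standard error 0.38, edgeR adjusted p = 0.187 over transcripts) and groups that did not overlap. ENSMUST00000039413, which starts at another promoter without the match and took 59.1%, had a log2FC of 0.52 (standard error 0.35, edgeR adjusted p = 0.568).

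The rest of the cAMP pathway held few calls. Of 9 tested adenylyl cyclases, which make cAMP, Adcy9 rose in the HFD group, with 15.1 to 18.1 FPKM in the control mice and 21.1 to 28.1 in the HFD mice (log2FC 0.65, standard error 0.12, edgeR adjusted p = 0.025), and it was the 1 of 9 past the adjusted threshold, beside 2.43% of all genes. At an unadjusted P < 0.05 it was the 1 higher cyclase, and 4 were lower, against 24.2% of all genes in either direction. Of 9 tested genes that cAMP is known to induce, Btg2, an early growth-arrest gene, fell in the HFD group, from 23.0, 32.8, 27.1, and 32.4 FPKM to 8.77, 13.6, 10.1, and 9.42 (2.47-fold lower, edgeR adjusted p = 0.0369), again 1 of 9. At an unadjusted P < 0.05, 5 of the 9 were lower and 1 was higher there, and in HFD + RSV relative to HFD mice 4 were higher and 1 was lower, against 4.72% of all genes, with no adjusted call. Nr4a3, a nuclear receptor that adrenergic signals induce in muscle, fell in HFD + metformin relative to HFD mice (log2FC -3.02, standard error 0.39, edgeR adjusted p = 0.0133), as 1 of 9 beside 0.013% of all genes. Its FPKM was 2.96, 5.37, 4.87, and 1.76 in the HFD mice and 0.940, 0.740, 0.762, and 0.833 in the HFD + metformin mice. On leaving out 1 mouse, 0 to 2 of all genes were called in this comparison. The call of Nr4a3 therefore did not hold in every such fit. Adcy9 and Btg2 were not followed singly in these fits. The medians of these lists were -0.44 for the cyclases and -0.57 for the induced genes in HFD relative to control mice, beside -0.02 for all genes.

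None of the other lists had a gene past the adjusted threshold in the 3 comparisons with the HFD group. They were 10 tested genes of other phosphodiesterases, 12 of receptors and G proteins, 8 of protein kinase A subunits and inhibitors, 8 of other cAMP effectors, 14 of anchoring proteins, 7 of CREB factors and coactivators, and 8 of the Epac to AMPK route. Their medians in HFD relative to control mice lay between -0.27 and 0.05. The smallest adjusted p belonged to Crtc1, a CREB coactivator (log2FC 0.33, edgeR adjusted p = 0.0597), and to Akap6, an anchor of protein kinase A in muscle (log2FC 0.68, edgeR adjusted p = 0.0606). Prkar2a, a regulatory subunit of protein kinase A, had a log2FC of 0.38 (edgeR adjusted p = 0.112), and Pde6d, whose product carries prenylated proteins, had 0.39 (adjusted p = 0.125).

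The genes whose log2 CPM was most like that of Pde4d over the 16 mice, among the 15364 tested, were Fnip1 (Pearson's r = 0.92), Ppp3cc (0.90), Hdlbp (0.89), Gm4609 (0.89), and Eif1 (0.88). For NONMMUT019242.2 they were Creld2 (0.89), Camsap1 (0.89), Gm42466 (0.88), Fan1 (0.87), and Plxnd1 (0.87). The 16 points are 4 groups of 4 mice, so a shared group difference enters r. Gm42466 had group means of 0.837, 2.69, 1.36, and 1.72 FPKM in the control, HFD, HFD + RSV, and HFD + metformin groups.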

How the data were processed

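Total RNA of skeletal muscle from 16 mice was sequenced paired-end after ribosomal RNA depletion, with 1 library per mouse. The submitters' processing notes name fastp, HISAT2, and GRCm38, and the study's methods name StringTie. The deposited values are estimated counts per transcript, held as whole numbers, and FPKM, in separate mRNA and lncRNA tables. The authors' FPKM differed from count per length and per total of both tables by a median of at most 0.0098% in any mouse, so no further scaling was applied in them. The strand setting of the library is not given in the sources used here.

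Counts were summed by gene name. edgeR 4.0.16 in R 4.3.3 with TMM scaling, filterByExpr by group (minimum count 10, minimum total 15), and 1 quasi-likelihood fit over all 4 groups gave log2 fold changes and Benjamini-Hochberg adjusted p over all 15364 genes, 44573 mRNA transcripts, or 17599 lncRNAs tested. The threshold was an adjusted p below 0.05. On simulated counts for the HFD group against the control group, over 15215 genes, 87% of 200 genes changed by a log2FC of 2 were recovered. There were 9 false calls. Apart from Pde3b the members differed by less than this log2FC, so the share recovered does not apply to differences of their size. Totals of 20281801 to 34021101 counts per mouse set the counting precision, and the tests set the group differences against the estimated spread between mice. DESeq2 1.42.0, limma 3.58.1 on log2(FPKM + 0.1), other scalings, filters, sample sets, and a block by the last number of the titles were alternatives. Python 3.11.15 was used for the summaries.

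The 10 members, the gene lists, and the lncRNA were chosen with earlier results of these data known. Named were the members, the filtered Pde4d transcripts, the lncRNA, up to 6 genes of a list with an adjusted p below 0.05 in a comparison with the HFD group or, where none passed, up to 3 with the smallest P, and the 5 genes with the highest Pearson's r to Pde4d and to the lncRNA. The other lncRNA rows and the single transcripts of Pde4a were picked after their values were seen.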

Additional observations from a re-analysis of the deposited data

Results flagged for a closer look

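In 216 groups of 4 mice, 12 held 1 mouse far from the other 3 by Dixon's criterion, and chance gives about 1 in 20. Values are TMM-scaled CPM. Pde3b was at 294 in control replicate 3, against 67.9 to 101 in the other control mice, and this mouse was the highest in adipocyte markers. Pde4b was at 182 in HFD + RSV replicate 3, against 145 to 146, and at 170 in HFD + metformin replicate 4, against 96.3 to 104. Pde7a was at 170 in HFD + metformin replicate 2, against 125 to 132. Pde10a was at 6.32 in HFD + metformin replicate 4, against 10.6 to 11.4. The Pde4d transcript ENSMUST00000135275 was at 6.02 in control replicate 4, against 8.77 to 9.32. Among lncRNA rows within Pde4d, NONMMUT142953.1 was at 0.694 in HFD replicate 4, against 4.16 to 4.50. NONMMUT019235.2 was at 81.9 in HFD + metformin replicate 3, against 658 to 773. NONMMUT019252.2 was at 34.4 in HFD + RSV replicate 4, against 59.4 to 61.1. In HFD + metformin replicate 4, NONMMUT019259.2 was at 791 against 216 to 313, NONMMUT019261.2 at 189 against 51.4 to 63.3, and NONMMUT019264.2 at 614 against 187 to 257.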

How the results depend on the processing

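Of 942 values recomputed under an alternative, 877 kept their direction and their side of the threshold or, for values with no test, moved by less than 1 SD between mice. The count of members called in HFD relative to control mice was 1, and it was 0 with no filter, 3 with only the 2 groups in the fit, 3 with DESeq2, and 0 without the 2 mice highest in adipocyte markers, an alternative chosen after seeing the data. Leaving out 1 mouse gave 0 to 2. In the HFD + RSV group against the control group the count was 0, with 1 by DESeq2 (Pde4a, adjusted p = 0.03) and 0 to 1 on leaving out 1 mouse. The other 4 comparisons gave 0 under every alternative run. The count over all genes in HFD relative to control mice was 374, from 16 without control replicate 2 to 1588 without HFD + metformin replicate 3, 158 with no filter, 998 with only the 2 groups, 1544 with DESeq2, 213 with library sizes of both tables, and 197 with limma. The cause was not tested. With library sizes of both tables and no TMM, log2FC was -0.13 for Pde7a (HFD against control), 0.11 for Pde7a (HFD + metformin against HFD), -0.082 for Pde4d (HFD + RSV against control), and -0.068 for ENSMUST00000120664 (HFD against control), which was also -0.068 as a ratio of mean FPKM. With limma on FPKM it was -0.096 and 0.079 for Pde7a in the same comparisons and -0.024 for Pde10a (HFD + RSV against HFD). Without the 2 mice highest in adipocyte markers it was -0.068 and 0.017 for Pde7a, -0.054 for Pde3a (HFD + metformin against HFD), -0.019 for Pde4d (HFD + RSV against control), and -0.015 for Pde4d (HFD + RSV against HFD + metformin). Values with no test also turned sign. Pde4d in HFD relative to control mice was -0.036 with library sizes of both tables and -0.084 with limma, Pde4d in HFD + RSV relative to HFD mice was 0.026 with limma, and ENSMUST00000119507 in HFD + metformin relative to HFD mice was 0.031 both with library sizes of both tables and as a ratio of mean FPKM. Leaving out 1 mouse turned the direction within these ranges. In HFD relative to control mice they were -0.26 to 0.12 for Pde4c, -0.11 to 0.072 for Pde7a, -0.25 to 0.19 for Pde10a, and -0.10 to 0.28 for Pde4b. In HFD + RSV relative to HFD mice they were -0.26 to 0.049 for Pde4c, -0.17 to 0.30 for Pde10a, -0.040 to 0.11 for Pde4a, -0.11 to 0.093 for Pde7b, and -0.30 to 1.48 for Pde3b. In HFD + metformin relative to HFD mice they were -0.12 to 0.11 for Pde7a, -0.40 to 0.098 for Pde4b, and -0.055 to 0.20 for Pde3a. For Pde4d they were -0.025 to 0.030 (HFD + RSV against control), -0.15 to 0.030 (HFD + metformin against control), and -0.022 to 0.16 (HFD + RSV against HFD + metformin). The relation of Pde4d with NONMMUT019242.2 had a Spearman's rho of -0.0088, and leaving out 1 mouse gave r from -0.27 to 0.27. The titles end in numbers that recur across groups, with no stated meaning. Over the 20 pairs of mice from different groups with the same last number, the correlation of their deviations from the group means was -0.36 to 0.30, above 0.1 in 6. For HFD against control the 3 such pairs had 0.0065 to 0.28, beside a median of -0.0087 for the other pairs. So few pairs cannot decide whether the number pairs mice, and the main fits did not use the number. With it as a replicate block, chosen after seeing the data, the count of members called in HFD relative to control mice was 0 (Pde8a, log2FC -0.86, adjusted p = 0.0778), 26 of all genes were called there, and Pde10a turned to -0.11 in HFD + RSV relative to HFD mice. It changed no other count of members called. Counts of 12 to 17 for NONMMUT019242.2 in the control mice limit its fold.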
